A study of Mus musculus with 36 samples.

Results

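Whole-lung gene expression after 48 hr of ozone was compared between mice that lack Notch4 and wild type (WT) mice. The comparison used 6 of the 36 arrays of the series, 3 from Notch4-/- mice and 3 from WT mice, each from a different animal. The exposure was 0.3 ppm ozone, breathed continuously by the whole animal, and all mice were males of 7 to 13 weeks. The Notch4-/- mice carried the Notch4tm1Grid deletion from birth in every tissue, on a background mixed from a pair of inbred strains, and the WT mice were first-generation hybrids of those strains. All the lines were purchased from a breeder. The loss of Notch4 and the strain background were therefore carried by the same mice and cannot be told apart. The other arrays were from WT, Notch4-/- and Notch3-/- mice (Notch3tm1Grid, on the same mixed background) in filtered air or after 6, 24 or 48 hr of ozone, 3 mice a group, and they entered the fit to estimate the spread between mice. RNA came from the snap-frozen left lung, so that fewer cells of a type and less RNA per cell cannot be told apart in any value below. The question addressed is which lung transcripts differed with the Notch4 genotype late in the exposure.

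Notch receptors are membrane proteins that are cleaved by ADAM metalloproteases and then by γ-secretase when they bind a Jagged or Delta-like ligand on a neighbouring cell. The freed intracellular domain enters the nucleus and acts with the DNA-binding protein RBPJ on genes such as those of the Hes and Hey families. Notch4 is best known as a receptor of endothelial cells. Inhaled ozone injures the airway and alveolar epithelium, and the lung responds with cytokines and chemokines, leakage of plasma protein, an influx of neutrophils and, later, epithelial repair with cell division.

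Each value is the log2 signal of a probe set, a group of array probes for a transcript, with 0 at that probe set's median over the 36 arrays. A level of 1 is thus 2-fold above that median, levels cannot be set against each other between genes, and whether a lung marker was present at all cannot be read from these values. Differences are given as Notch4-/- minus WT with the standard error (SE) of the fit. A probe set is called where its limma p-value, adjusted over all 45037 probe sets tested, is under 0.05. The array of Notch4-/- mouse 2 stood apart. It had the widest spread of values of the 6 arrays (SD 0.426 against 0.26 to 0.312), and 1472 of its probe sets lay more than 1 log2 unit from the mean of the other Notch4-/- mice, against 967 for WT mouse 2 and 266 to 423 for the other 4. Its own high genes were those of fat tissue, with Ucp1 5.91 and Adipoq 4.13 above the mean of the other Notch4-/- mice.

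The deleted gene was checked on its 3 probe sets. On 1449146_at the WT mice had Notch4 levels of 0.23, 0.15 and -0.38, and the Notch4-/- mice had -3.79, -3.42 and -4.05. The groups were far apart, with a difference of -3.76 (SE 0.31, adjusted p 6.2e-09), a 13.5-fold lower signal. The other probe sets did not pass, with differences of -0.56 (1456263_at, adjusted p 0.089) and -0.12 (1436901_at, adjusted p 0.87). Their position relative to the deleted part of the gene could not be learned from the labels or methods. The first of them passed when WT mouse 3 was left out (-0.71, adjusted p 0.034). In Notch3-/- mice at 48 hr the Notch4 signal on 1449146_at differed from WT by 0.04.

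In all, 212 of the 45037 probe sets were called (0.471%), 122 higher (0.271%) and 90 lower (0.2%) in Notch4-/- mice. They stood for 167 genes among the 185 called probe sets with exactly 1 gene symbol. The groups of 3 did not overlap on 211 of the 212, which follows largely from the call on these same arrays and is no further support. Over all probe sets they did not overlap on 10.4% (6.19% with the Notch4-/- mice above and 4.17% with them below). The median difference over all probe sets was 0.00, and the median SE was 0.14. The count fell to 107 without WT mouse 1, of which 104 were among the 212, and to 129 without Notch4-/- mouse 2, of which 105 were. Without mouse 2 of both groups it was 119, with 96 shared. The split of calls turned with the setting: 50 were higher and 57 lower without WT mouse 1, 57 and 72 without Notch4-/- mouse 2, 7 and 18 with only the 6 arrays compared in the fit, and 13 and 27 by the methods' Tukey's test. The largest differences were losses, led by Gbp2b, Gdpd3, Notch4 itself and Psca, and the highest members were led by Cxcl13, Gm4951, AA467197 and Arg1. The plot of leading genes by mouse shows 16 of the named genes.

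**Figure D1:**
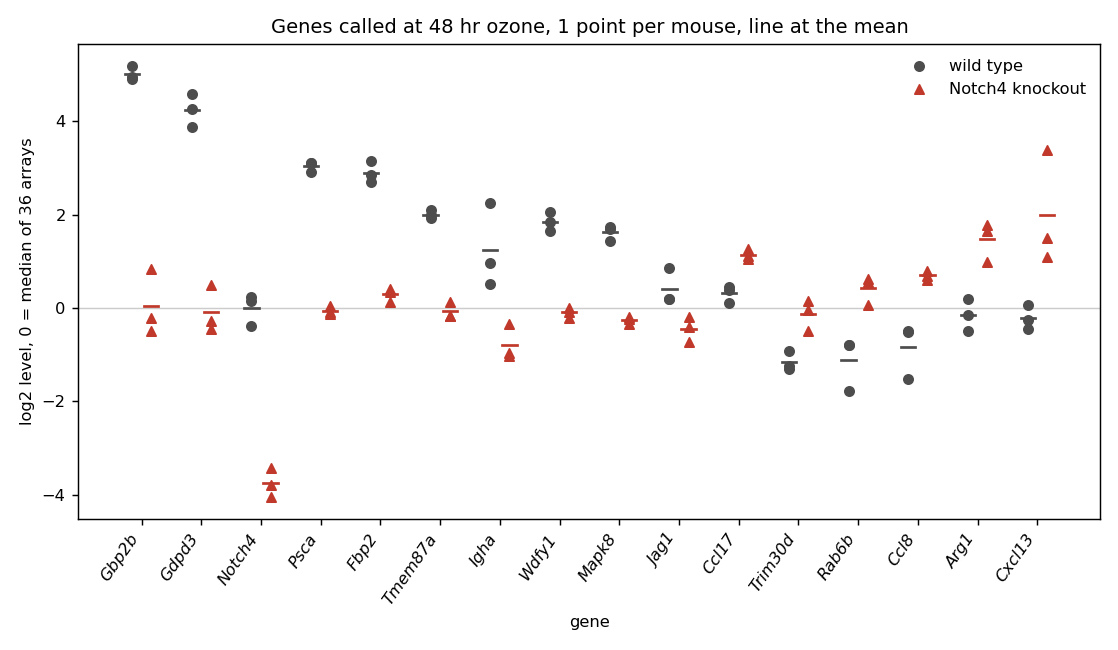
Log2 level (vertical axis, 0 at the median of 36 arrays) of 16 called genes (horizontal axis) in the lungs of WT mice (grey circles) and Notch4-/- mice (red triangles) after 48 hr of ozone, 1 point per mouse and a line at each group's mean of 3. Gbp2b lay between 4.90 and 5.20 in WT mice and between -0.49 and 0.83 in Notch4-/- mice, and the Cxcl13 level of Notch4-/- mouse 2 (3.38) lay well above those of the other Notch4-/- mice.

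The upstream sequences of 3 genes on which the results turn are shown here because they cover the largest loss and both of the largest chemokine rises. Each is the 250 bases before the most 5′ start that RefSeq lists (build GRCm38.p6), written 5′ to 3′ on the gene's strand. Capitals mark matches, on either strand, to the core of the RBPJ site (TGGGAA) or to an interferon-stimulated response element (GAAA, any 2 bases, GAAA). The 2 motifs do not overlap in these windows. Cxcl13 is shown from chr5:95956689-95956938 (plus strand), Ccl8 from chr11:82114935-82115184 (plus strand) and Gbp2b from chr3:142594597-142594846 (plus strand).
Cxcl13: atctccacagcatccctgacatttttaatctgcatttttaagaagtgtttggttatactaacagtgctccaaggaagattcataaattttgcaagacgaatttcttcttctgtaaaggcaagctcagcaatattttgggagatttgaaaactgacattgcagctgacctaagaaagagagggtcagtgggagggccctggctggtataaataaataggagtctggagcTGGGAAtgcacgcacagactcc
Ccl8: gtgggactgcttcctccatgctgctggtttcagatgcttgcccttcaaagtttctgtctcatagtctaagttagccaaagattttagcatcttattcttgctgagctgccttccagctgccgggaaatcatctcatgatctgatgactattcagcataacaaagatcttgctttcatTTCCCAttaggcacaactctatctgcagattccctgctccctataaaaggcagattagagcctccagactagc
Gbp2b: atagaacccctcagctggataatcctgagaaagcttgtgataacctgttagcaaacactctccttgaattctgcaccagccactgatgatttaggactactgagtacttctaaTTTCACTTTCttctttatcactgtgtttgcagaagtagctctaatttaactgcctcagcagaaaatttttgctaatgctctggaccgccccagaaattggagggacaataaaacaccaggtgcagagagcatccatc
Cxcl13 and Ccl8 held 1 match each to the RBPJ core, and Gbp2b held 1 match to the interferon element. Matches to the RBPJ core were common and those to the interferon element were not. Of 27025 genes with an upstream window of this length, 21.54% held the RBPJ core and 3.05% the interferon element. Of the 167 called genes 130 had a window. The RBPJ core was in 18 of 81 windows of higher genes (22.22%) and in 12 of 49 of lower genes (24.49%), and the interferon element was in 2 of each (2.47% and 4.08%).

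Gbp2b and Gdpd3, the genes with the largest losses, had signals near the series median in the knockout and several log2 units above it in WT mice. Gbp2b encodes an interferon-inducible guanylate-binding GTPase. Its levels were 4.95, 4.90 and 5.20 in WT mice and -0.49, 0.83 and -0.21 in Notch4-/- mice, a 31.4-fold lower signal in Notch4-/- lungs (difference -4.97, SE 0.22, adjusted p 6.6e-15). Gdpd3, a glycerophosphodiester phosphodiesterase of lipid metabolism, had levels of 3.88, 4.26 and 4.59 in WT mice against -0.28, 0.50 and -0.44 (difference -4.32, SE 0.28, adjusted p 2.5e-11). Tmem87a, a multi-pass membrane protein, was -2.07 (SE 0.10), with WT levels of 1.92 to 2.11 and Notch4-/- levels of -0.17 to 0.14. Further genes were also lower, with adjusted p-values of 6.9e-04 or less. They were Wdfy1, a phosphoinositide-binding protein (-1.95), Bloc1s6, a subunit of the BLOC-1 complex of lysosome-related organelles (-1.94), Cntn1, a neural cell adhesion molecule (-1.91), Mapk8, the stress kinase JNK1 (-1.89), and Zdhhc14, a palmitoyltransferase (-1.68). Several of these calls rest on the probe set. Bloc1s6 was called on 1457088_at, while its other probe sets gave 0.21 (adjusted p 0.33) and -0.01 (adjusted p 0.99). Zdhhc14 was called on 2 of its 6 probe sets, the other at -0.77 (adjusted p 0.0014), and the remaining 4 gave -0.24 to 0.06 and did not pass. Wdfy1 was called on 3 of 5 probe sets (-1.95, -1.41 and -1.26), with -0.41 and 0.08 on the others, and Cntn1 on 2 of 3 (-1.91 and -1.50), with 0.13 on the third. For Mapk8, 1457936_at gave -1.89 and 1440856_at -0.39 (adjusted p 0.025), while the other 3 gave 0.07, 0.14 and 0.46 and did not pass.

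Psca and Fbp2 were lower in Notch4-/- mice, and their WT levels at 48 hr were above those in air. Both were lower in air too, Psca by -1.58 (adjusted p 1.3e-07) and Fbp2 by -2.12. Psca encodes a GPI-anchored surface protein of the Ly6 family. Its levels were 3.11, 3.10 and 2.92 in WT mice and -0.14, -0.09 and 0.03 in Notch4-/- mice, a difference of -3.11 (SE 0.15, adjusted p 3.3e-14). WT mice at 48 hr were 1.60 above WT mice in air (adjusted p 4.6e-07, where 1.39% of all probe sets were called higher), and Notch4-/- mice at 48 hr were 0.07 above Notch4-/- mice in air (adjusted p 0.89, with 1.48% called higher). Fbp2, the muscle isoform of the gluconeogenic enzyme fructose-1,6-bisphosphatase, was 2.69, 2.85 and 3.15 in WT mice and 0.35, 0.13 and 0.41 in Notch4-/- mice (difference -2.60, SE 0.18, adjusted p 7.5e-11). Fbp2 rose over air in both genotypes, by 1.18 in WT mice (adjusted p 1.9e-04) and by 0.70 in Notch4-/- mice (adjusted p 0.034).

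The calls of Igha, Kantr, Zkscan8 and Zfp991 turned on single arrays. Igha, the constant region of the immunoglobulin A heavy chain made by plasma cells, had levels of 2.26, 0.97 and 0.52 in WT mice and -0.35, -1.04 and -0.96 in Notch4-/- mice. The groups did not overlap, but WT mouse 1 was well above the other WT mice. The difference was -2.03 (SE 0.44, adjusted p 0.025), the other probe sets of Igha gave -2.11 (adjusted p 0.037) and -1.78 (adjusted p 0.046), and the call was lost without WT mouse 1 (-1.53, adjusted p 0.33), Notch4-/- mouse 2 (adjusted p 0.14) or Notch4-/- mouse 3 (adjusted p 0.091). Igh genes are near-identical copies over parts of their length, and the _x_ probe sets among these can bind more than 1 of them. Kantr, a long noncoding RNA of the X chromosome, was at 0.17, -0.31 and -0.20 in WT mice and -1.56, -2.57 and -1.57 in Notch4-/- mice (difference -1.78, adjusted p 0.022). It lost its call without WT mouse 1 (adjusted p 0.17), WT mouse 3 (0.062) or Notch4-/- mouse 2 (0.22). This is 1 of its 4 probe sets, 1438575_a_at, and the others gave -0.60, -0.13 and 0.30 and did not pass (adjusted p 0.23 to 0.85). The zinc finger genes Zkscan8 (-1.87, adjusted p 0.0093) and Zfp991 (-1.82, adjusted p 0.032) were lower too, each on 1 of 3 probe sets. The others of Zkscan8 gave -0.23 and 0.06 and did not pass. Those of Zfp991 gave -0.10 and 0.79 (adjusted p 0.85 and 0.40), and on the latter all Notch4-/- mice lay above all WT mice. Zkscan8 was not called without WT mouse 1 (adjusted p 0.12), WT mouse 3 (0.061) or Notch4-/- mouse 2 (0.087), and Zfp991 was not called without any 1 of the 6 arrays (adjusted p 0.063 to 0.15).

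Among the higher genes, chemokines and an arginine-degrading enzyme stood beside genes of little-known function. Cxcl13, the chemokine that draws B cells through CXCR5, was at -0.46, 0.06 and -0.25 in WT mice and 1.51, 3.38 and 1.09 in Notch4-/- mice. All Notch4-/- mice lay above all WT mice, and mouse 2 lay farthest above. The difference was 2.21 on 1417851_at (SE 0.37, adjusted p 1.2e-03), a 4.62-fold higher signal, and 1.63 on 1448859_at (SE 0.27, adjusted p 1.2e-03). It stayed called on both probe sets without any 1 array, with a difference of 1.51 as the lowest on the first of them over all alternatives. Both probe sets lost their call when only the 6 arrays compared entered the fit (adjusted p 0.50 and 0.52) and by the methods' Tukey's test (0.24 and 0.22). Arg1, arginase 1, which turns arginine into ornithine and urea and marks alternatively activated macrophages, was at -0.15, -0.50 and 0.19 in WT mice and 1.78, 0.99 and 1.65 in Notch4-/- mice. Its difference was 1.63 (SE 0.25, adjusted p 6.5e-04), and it too was not called with only the arrays compared (adjusted p 0.15) or by Tukey's test (0.13). Ccl8, a monocyte-attracting chemokine, was at -1.53, -0.51 and -0.49 in WT mice and 0.80, 0.61 and 0.69 in Notch4-/- mice (difference 1.54, SE 0.30, adjusted p 0.007). WT mouse 1 was the lowest, and without it Ccl8 was not called (1.20, adjusted p 0.13).

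Ccl17, a ligand of CCR4 that attracts T helper cells, was at 0.11, 0.44 and 0.40 in WT mice and 1.26, 1.11 and 1.05 in Notch4-/- mice (difference 0.82, adjusted p 0.025). It rose with ozone in both genotypes, by 1.84 over air in WT mice and by 1.46 in Notch4-/- mice, and its difference was called in air too (1.20). The call at 48 hr was lost without WT mouse 1 or 3 or without any 1 of the Notch4-/- mice (adjusted p 0.051 to 0.23).

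The remaining high genes were of mixed function. Gm4951, named only by its gene model, was at -1.82, -1.78 and -1.64 in WT mice and -0.47, 0.61 and 0.54 in Notch4-/- mice (difference 1.97, adjusted p 0.0062, lost without Notch4-/- mouse 2 at adjusted p 0.065). AA467197 differed by 1.69 (adjusted p 5.1e-04) and rose over air by 1.50 in WT mice and 1.29 in Notch4-/- mice. Rab6b, a Golgi GTPase, differed by 1.54 (adjusted p 0.0062, lost without WT mouse 3 at 0.082). The others, from Gm32633 (1.28) and 1700097N02Rik (1.24) to 3110045C21Rik (1.08), included enzymes and cilium genes: Nnmt, nicotinamide N-methyltransferase (1.12), Ang, the ribonuclease angiogenin (1.11), Prdx2, a peroxiredoxin that removes hydrogen peroxide (1.09), Lztfl1, which controls traffic of the BBSome into cilia (1.09), Ifi209, of the interferon-inducible p200 family (1.08), and Fam3b, a secreted cytokine-like protein (1.08). Several were called on 1 probe set only. The other probe set of Prdx2 gave 0.16 (adjusted p 0.80), that of Ifi209 0.44 (adjusted p 0.79), and the other 4 of Lztfl1 gave -0.07 to 0.21 (adjusted p 0.81 to 0.97). The other probe sets of 1700097N02Rik gave 0.62 and 0.12, and those of Rab6b 1.20, 1.10 and 0.49, which did not pass. Ang was called on 2 of 3 probe sets, with 0.58 on the third (adjusted p 0.098). Nnmt, Ifi209 and Fam3b lost their calls without Notch4-/- mouse 2 (adjusted p 0.27, 0.14 and 0.057) and without WT mouse 1 (0.15, 0.17 and 0.067). Nnmt and Ifi209 lost them also without WT mouse 2 (0.078 and 0.10), and Ifi209 without Notch4-/- mouse 1 (0.055).

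Of the Notch pathway genes listed, only Jag1 was called besides Notch4 itself, on 1 of its probe sets. Of 11 measured receptors and ligands, taken by 1 representative probe set each, 0 were called in either direction by limma, against 0.308% higher and 0.247% lower of 18193 genes, and their median difference was -0.11 against 0.02 for all genes. Other probe sets of 2 of them were called lower, those of Notch4 and Jag1. With so low a share over all genes, 0 called in a list of this size does not show that its genes were unchanged. Even the deleted Notch4 was not called on its representative probe set (1436901_at, -0.12). Jag1, a Jagged ligand, gave -0.87 on 1421106_at (WT 0.86, 0.20 and 0.20, Notch4-/- -0.20, -0.73 and -0.41, adjusted p 0.041), but -0.32 and -0.47 on its other probe sets, which did not pass. The call was lost without WT mouse 1 (-0.65, adjusted p 0.43), Notch4-/- mouse 2 (-0.73, adjusted p 0.30) or Notch4-/- mouse 3 (-0.88, adjusted p 0.089). Dll4, the Delta-like ligand of arterial endothelium, differed by -0.60 (adjusted p 0.12), with 3 WT levels of 0.25 to 0.55 and 3 Notch4-/- levels of -0.42 to -0.05. Notch1 (-0.48), Notch2 (-0.02), Notch3 (0.03), Jag2 (-0.23) and Dll1 (-0.11) did not pass. None of 19 processing genes and cofactors (median -0.09) and none of 14 target genes (median -0.07) was called, Hes1 (-0.20, adjusted p 0.80), Hey1 (-0.48, adjusted p 0.48) and Efnb2 (-0.56, adjusted p 0.33) among them. At an unadjusted p under 0.05 3767 of all probe sets passed.

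Cell type markers were mostly not called, but only 0.555% of 18193 genes were called by their representative probe sets. That share applies to each list count below, and 0 called in lists of these sizes is near it. Of 28 lung endothelial markers 0 were called, with 24 differences below 0 and a median of -0.21. Their median level by array was 0.03, 0.01 and -0.14 in WT mice and -0.17, -0.47 and -0.17 in Notch4-/- mice. The groups did not overlap, but WT mouse 3 lay only just above Notch4-/- mice 1 and 3, and Notch4-/- mouse 2 was the lowest. Tek, the angiopoietin receptor, differed by -0.44 (adjusted p 0.11), and Pecam1 by -0.61 (adjusted p 0.34). The median difference of the same list was -0.19 in air, -0.10 at 6 hr and -0.10 at 24 hr. Esm1, the endothelial proteoglycan endocan, was not on the list and was chosen here after its values were seen. It was at 0.54, 0.84 and 1.15 in WT mice and -0.67, -0.53 and -0.76 in Notch4-/- mice (difference -1.50, adjusted p 0.037). Its difference was -1.17 in air, -0.73 at 6 hr and -1.07 at 24 hr, none of them called. Notch3-/- mice at 48 hr differed from WT mice by -1.30 (adjusted p 0.058).

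All 16 neutrophil genes had differences above 0 (median 0.48), but 0 were called and the groups did not overlap on 4 (Ngp, Ltf, Mpo and Il1r2), against 10.4% of all probe sets. Ltf, the lactoferrin of neutrophil granules and airway glands, was at -2.24, -1.77 and -2.11 in WT mice and 1.45, 0.996 and 0.20 in Notch4-/- mice (difference 2.92, SE 0.97, adjusted p 0.29). It was called when only the 6 arrays compared entered the fit (adjusted p 0.035). In the same list Camp, the cathelicidin of neutrophil granules, differed by 1.32 (adjusted p 0.29) and was called without Notch4-/- mouse 3 (1.90, adjusted p 0.042). The list's median difference in other mice was 0.39 in air, 0.54 at 6 hr and 0.41 at 24 hr. Macrophage and monocyte genes had 1 of 18 called, Arg1, against 0.555% of all genes, with a median of 0.08.

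Airway secretory genes showed wide gaps without a call. On 10 of 18 the groups did not overlap, against 10.4% of all probe sets, and 0 were called. Bpifa1, the abundant secreted protein of the upper airway, was at -5.58, -5.95 and -1.68 in WT mice and 0.23, 0.75 and -0.23 in Notch4-/- mice (difference 4.65, SE 2.12, adjusted p 0.55). Scgb3a1, a secretoglobin, was at -3.48, -4.09 and -1.45 against 0.46, 1.18 and 0.11 (difference 3.59, SE 1.14, adjusted p 0.24). WT mouse 3 was well above the other WT mice in both genes, and the SE, which pools the spread within all 12 groups, was wide. The list's median differed less, by 0.23, and by 0.25 in air. Of 14 ciliated cell genes 0 were called (median 0.23), the nearest being Spag16, of the ciliary central apparatus (0.67, adjusted p 0.058), which passed with array weights (adjusted p 0.037) and when adjusted over 1 probe set per gene (adjusted p 0.045). Alveolar type 2 (14 genes, median 0.04), alveolar type 1 (12, -0.13), smooth muscle and pericyte (13, 0.14), fibroblast (15, 0.10), T and NK cell (25, 0.08) and B and plasma cell (19, 0.24) lists had 0 called. Igha was on none of these lists.

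Markers of fat, muscle and blood, tissues that border or fill the lung, were read to see which arrays they moved with. The median level of 10 fat tissue genes was -0.53, -0.26 and -0.37 in WT mice and -0.30, 2.84 and 0.01 in Notch4-/- mice. Notch4-/- mouse 2 alone stood high, with Ucp1, the uncoupling protein of brown fat, at 6.01 against 0.20 and 0.01 in the other Notch4-/- mice. The list's median difference was 1.25, with 0 of 10 called. Of 12 cardiac muscle genes (median 0.43), 18 skeletal muscle genes (median 0.15) and 5 red blood cell genes (median 0.06) 0 were called. Of the cardiac muscle genes 11 had differences above 0, up to 5.17 for Nppa, atrial natriuretic peptide (adjusted p 0.37). Myh7, a cardiac myosin heavy chain, was the 1 below 0. It differed by -1.14 (adjusted p 0.083) and was called without WT mouse 3 (-1.38, adjusted p 0.046). Several of the higher genes, Cxcl13, Fam3b and Nnmt among them, were highest in Notch4-/- mouse 2, and the part of carried-over tissue in those values was not tested. Without Notch4-/- mouse 2 Cxcl13 stayed called, while Fam3b and Nnmt did not.

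**Figure D2:**
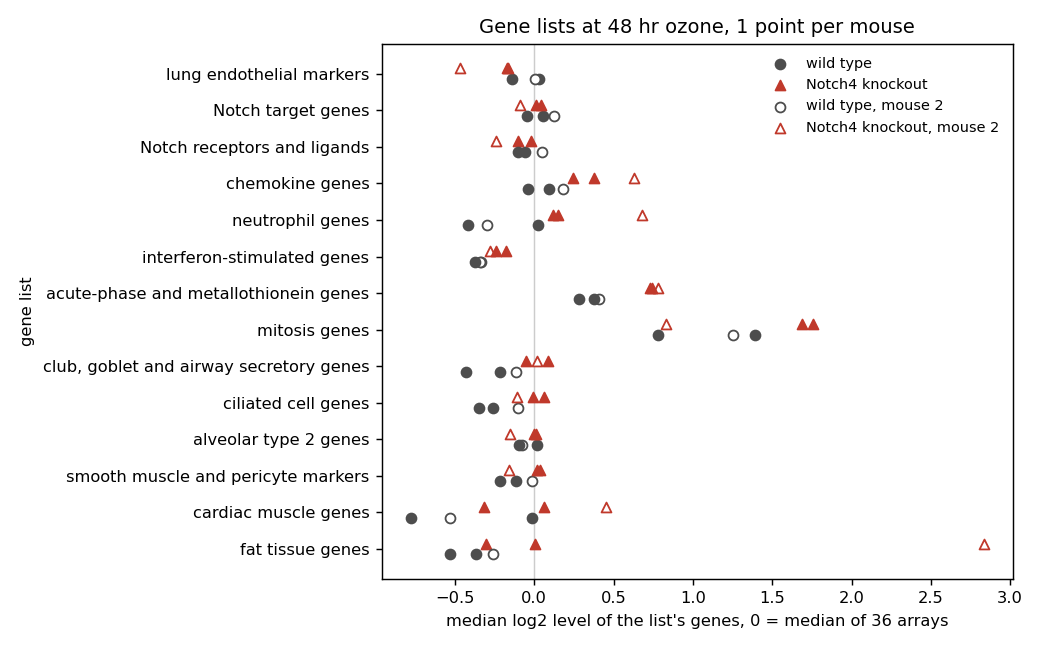
Median log2 level (horizontal axis, 0 at the median of 36 arrays) of the genes of 14 lists (vertical axis) in each WT mouse (grey circles) and each Notch4-/- mouse (red triangles) at 48 hr of ozone, with mouse 2 of each group drawn open. Fat tissue genes lay at 2.84 in Notch4-/- mouse 2 and between -0.53 and 0.01 in the other mice, and endothelial markers lay at -0.47 to -0.17 in Notch4-/- mice and at -0.14 to 0.03 in WT mice.

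Inflammatory signalling genes were as a rule not called. Chemokines had 3 of 30 called higher, Cxcl13, Ccl8 and Ccl17, and 0 lower, against 0.308% higher and 0.247% lower of all genes, with 25 differences above 0 and a median of 0.33. None of 39 TNF, IL-1, TLR and NF-kB genes passed (median 0.11). Tnf differed by -0.05 (SE 0.18), Cxcl1 by 0.10 (SE 0.37), Cxcl2 by 0.37 (SE 0.22), Il33 by 0.25 (SE 0.19), Myd88 by 0.12 (SE 0.11) and Socs3 by 0.24 (SE 0.15). Traf6, the ubiquitin ligase that relays TLR and IL-1 receptor signals, was between -0.13 and 0.23 on its 5 probe sets, and the T cell kinase Zap70 between -0.11 and 0.07 on its 3. Il6 differed by 1.41 (adjusted p 0.12), and it was called without Notch4-/- mouse 3 (1.80, adjusted p 0.038). The 16 acute-phase and metallothionein genes rose with ozone over air on 7 genes in each genotype, against 1.39% (WT) and 1.48% (Notch4-/-) of all probe sets, and had 0 called between genotypes (median 0.12).

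Interferon-stimulated genes had 1 of 31 called, Gbp2b, lower, against 0.247% lower of all genes. Of their differences 22 were above 0, and the median was 0.09. Ifi27l2a differed by 1.39 (adjusted p 0.12) and was called without WT mouse 3 (1.78, adjusted p 0.038) or Notch4-/- mouse 3 (1.91, adjusted p 0.0091). Of all genes 0.308% were called higher by their representative probe sets. Among 11 Trim genes, E3 ubiquitin ligases of which several act in antiviral defence, Trim30d was called higher by its representative probe set. It was at -1.32, -1.25 and -0.91 in WT mice and -0.05, 0.14 and -0.49 in Notch4-/- mice (1435665_at, difference 1.03, adjusted p 0.0037). It lost the call without Notch4-/- mouse 2 (0.89, adjusted p 0.054), and its other probe set gave 0.53 (adjusted p 0.26). Trim12a gave 1.07 on 1437432_a_at (adjusted p 0.014) and 0.05 on 1420648_at, and the call was lost without WT mouse 1 (adjusted p 0.16), WT mouse 2 (0.078) or Notch4-/- mouse 2 (0.17). Trim30a (0.30 and 0.11), Trim5 (0.72) and Trim34a (-0.48 and 0.85) did not pass. These genes lie close together and resemble each other, so that probes may bind more than 1 of them.

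Cell division genes were raised over air in both genotypes, on 26 of 31 mitosis genes in WT mice and on 9 in Notch4-/- mice, against 1.39% and 1.48% of all probe sets, and 0 were called between genotypes at 48 hr (median 0.21). Their median level was 1.39, 1.25 and 0.78 in WT mice and 1.76, 0.83 and 1.69 in Notch4-/- mice, so the groups overlapped. Bub1, a spindle checkpoint kinase, was called higher on a probe set other than its representative (0.75, adjusted p 0.006). In air the list's median difference was 0.89, and the counts over air therefore start from different levels. The 26 DNA replication genes (median 0.08), 17 circadian clock genes (-0.22), 15 glucocorticoid-responsive genes (-0.02), 17 cholesterol synthesis genes (0.07), 19 NRF2 antioxidant genes (-0.01), 14 MHC class I genes (0.14), 10 MHC class II genes (-0.15) and 20 immediate early and heat shock genes (-0.07) had 0 called, and so had the representative probe sets of 18 repair and cornified envelope genes (0.01). Ivl, involucrin, a protein of the cornified envelope, was called higher on another probe set (0.79, adjusted p 0.0038). The study singled out genes for a Notch4 pattern, a choice made on these same samples and thus no independent evidence. Its pattern was a rise over air in Notch4-/- mice only, a measure unlike the genotype difference at 48 hr counted here. The genes read here are the leading ones that the study printed in a figure, a part of that pattern. Of 10 of these genes measured, 1 was called lower than in WT mice. This was Gnb4, a G protein beta subunit (-0.94, adjusted p 0.039), whose call was lost without WT mouse 1 (0.25) or 3 (0.22) or Notch4-/- mouse 2 (0.17) or 3 (0.13). Its difference from WT mice was -0.91 in air, -1.04 at 6 hr and -1.24 at 24 hr. Tbc1d24 of the same genes was called higher on a probe set other than its representative (0.50, adjusted p 0.0084).

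The 212 probe sets were then read in the mice of the other exposures, which share no array with the 48 hr comparison and only the estimate of spread. In the comparison at 24 hr 344 probe sets were called (0.764%), and 118 of them were among the 212 (55.7% of the 48 hr calls and 34.3% of those at 24 hr). At 6 hr 289 were called (0.642%) and 119 were shared (56.1% and 41.2%), and in air 217 were called (0.482%) and 99 were shared (46.7% and 45.6%). All shared probe sets had the same direction, and 208, 207 and 205 of the 212 had the same sign at 24 hr, 6 hr and in air. The median size at 48 hr was 0.81, and the median in the direction seen at 48 hr was 0.63 at 24 hr, 0.71 at 6 hr and 0.64 in air. Sizes at 48 hr are those of called probe sets and are therefore not set against the others as a change. Among the 212, 79 were called at every exposure (28 higher and 51 lower), and 70 were called at 48 hr and at none of the others (46 higher and 24 lower).

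The losses of Gbp2b, Gdpd3, Tmem87a, Wdfy1, Bloc1s6, Cntn1, Mapk8 and Zdhhc14 were among those called in every exposure. Gbp2b differed by -5.62 in air, -4.96 at 6 hr and -5.03 at 24 hr, and Gdpd3 by -4.59, -4.51 and -4.79. Psca was also called in every exposure, at -1.58, -1.95 and -2.09. Fbp2 differed by -2.12 in air, -1.89 at 6 hr and -2.47 at 24 hr. Of the higher genes, Ang, Prdx2, Ifi209, Trim30d and Trim12a were called in all 4. Ifi209 differed by 1.24 in air, 1.95 at 6 hr and 1.25 at 24 hr, and Trim30d by 1.11, 1.64 and 1.44.

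**Figure D3:**
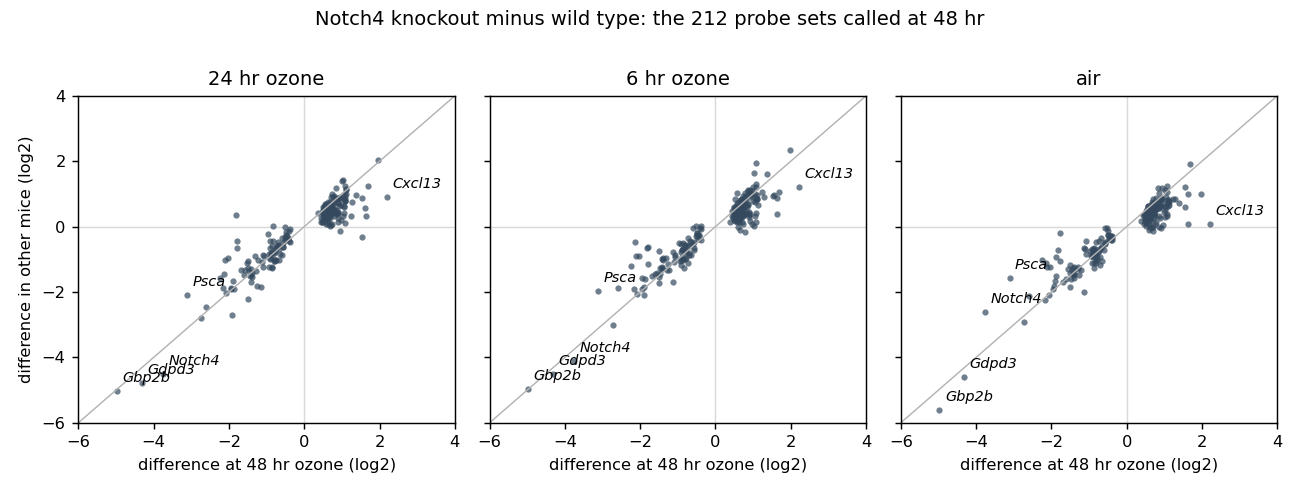
Notch4-/- minus WT difference (log2) of the 212 probe sets called at 48 hr of ozone (horizontal axis) against the same difference in other mice at 24 hr of ozone, at 6 hr of ozone and in air (vertical axis, left to right), with 1 point per probe set, a diagonal of equal values and 5 genes named. Gbp2b and Gdpd3 lay near the diagonal in all 3 panels, while Psca lay above it and Cxcl13 below it.

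Cxcl13, Arg1, Igha, Kantr, Fam3b, Rab6b, Ccl8 and Jag1 were among the 70 called at 48 hr alone. Cxcl13 differed by 0.07 in air, 1.23 at 6 hr and 0.91 at 24 hr on 1417851_at, and Arg1 by 0.995, 0.39 and 0.56. Cxcl13 rose over air by 2.01 in Notch4-/- mice (adjusted p 0.0029), while WT mice at 48 hr differed from WT mice in air by -0.13 (adjusted p 0.97). Ccl8 was about as far apart in air (1.23, adjusted p 0.056) as at 48 hr (1.54). Others of the 70, chosen here after their values were seen, were Trpv6, an epithelial calcium channel, at -0.61, -0.41 and -0.68 in WT mice and 0.04, 0.18 and 0.21 in Notch4-/- mice (difference 0.71, adjusted p 6.5e-04, air -0.13), and Phgr1 (difference 1.02, adjusted p 6.5e-04, air 0.29).

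A call at 48 hr alone is no test of a change with exposure, and that change was tested directly. Of 45037 probe sets 1 (0.00222%) had a genotype difference at 48 hr that differed from that in air, and it was Psca, with a 48 hr difference of -3.11 against -1.58 in air (change -1.53, SE 0.21, adjusted p 0.0032). At an unadjusted p under 0.05 1480 passed. The change of Cxcl13 was 2.14 (SE 0.52) on 1417851_at and 1.56 on 1448859_at, with an adjusted p of 1 for each. The change of Arg1 was 0.63, of Fbp2 -0.48 and of Igha -0.81, all with an adjusted p of 1. In air, Notch4-/- mice 1 and 2 had intermediate Notch4 signals on 1449146_at (-1.97 and -1.40, against -3.69 in mouse 3), and without both of them 0 probe sets were called. Without Notch4-/- mouse 2 at 48 hr 7 were called, with Psca among them, and without Notch4-/- mouse 2 or mouse 3 in air 2 were called each time. Against the mean of air, 6 hr and 24 hr, 2 probe sets were called, Psca (-1.23, SE 0.17, adjusted p 0.004) and Tshb, which encodes a subunit of thyrotropin (2.39, SE 0.37, adjusted p 0.013), whose own difference at 48 hr was 0.79 (adjusted p 0.48).

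**Figure D4:**
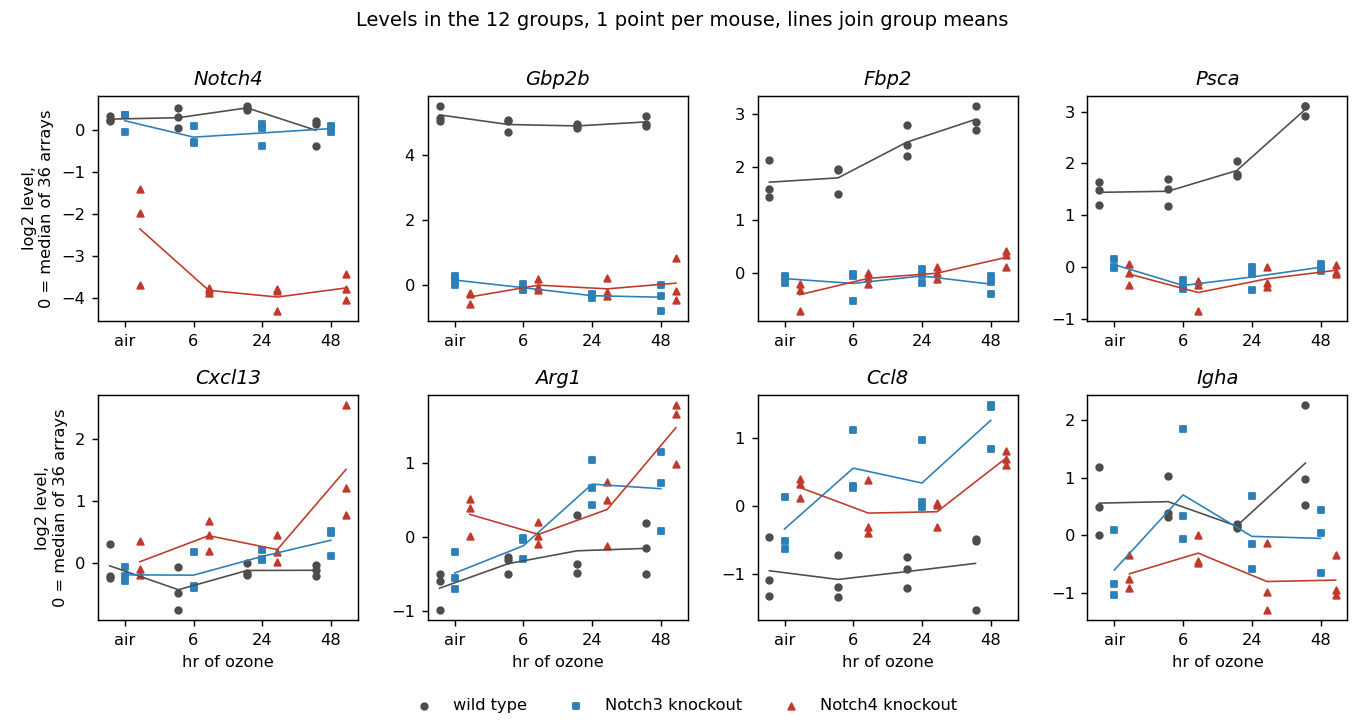
Log2 level (vertical axes, 0 at the median of 36 arrays) of 8 genes in air and after 6, 24 and 48 hr of ozone (horizontal axes) in WT (grey circles), Notch3-/- (blue squares) and Notch4-/- (red triangles) lungs, 1 point per mouse and lines through the means of 3. Cxcl13 is drawn from 1448859_at and Notch4 from 1449146_at. Psca rose from 1.44 in air to 3.04 at 48 hr in WT mice and was at -0.14 and -0.06 in Notch4-/- mice.

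Notch3-/- mice at the same exposure give a view of which differences were shared by the other knockout line, of the same mixed background. Against the same 3 WT arrays 484 probe sets were called in Notch3-/- mice (1.07%). Because the WT arrays are shared, the values are given side by side only. Gbp2b was -4.97 in Notch4-/- and -5.41 in Notch3-/- mice, Gdpd3 -4.32 and -4.56, Psca -3.11 and -3.05, and Fbp2 -2.60 and -3.10. Ccl8 was 1.54 and 2.10, Gm4951 1.97 and 2.52, and Trim30d 1.03 and 1.53. Cxcl13 was 2.21 and 0.76, Arg1 1.63 and 0.80, Kantr -1.78 and -0.13, and Aldh2 -1.10 and 0.15.

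Tested directly, Notch4-/- differed from Notch3-/- mice on 140 probe sets (0.311%), 57 higher (0.127%) and 83 lower (0.184%) in Notch4-/- mice. The deleted genes led: Notch4 was -3.80 (1449146_at) and Notch3 3.44 and 1.88 on its probe sets. Next came Dynll1, a light chain of dynein (-1.77), Zfp945 (3.50), Lats1, a kinase of the Hippo pathway (1.75), Zfp994 (1.55), Tmem178 (-1.13), 1500011B03Rik (1.90) and Tbc1d24 (0.71), all with adjusted p-values of 3.1e-04 or less. Against WT mice Dynll1 (-1.08), Lats1 (0.85), Tmem178 (-0.68) and Tbc1d24 (0.50) were called too, and Zfp945 (0.81), Zfp994 (0.67) and 1500011B03Rik (0.88) did not pass. The last was called without WT mouse 3 (1.15, adjusted p 0.042). Against WT mice Lats1 lost its call without WT mouse 1 (adjusted p 0.12), WT mouse 3 (0.24) or Notch4-/- mouse 3 (0.22). Tmem178 lost it without WT mouse 1 (0.06) or Notch4-/- mouse 2 (0.095), and Tbc1d24 without WT mouse 1 (0.098), Notch4-/- mouse 2 (0.10) or Notch4-/- mouse 3 (0.066). Aldh2, the mitochondrial aldehyde dehydrogenase that clears acetaldehyde and lipid aldehydes, was at -0.20, 0.40 and 0.28 in WT mice and -1.06, -1.03 and -0.72 in Notch4-/- mice. These are values of 1457155_at. On it Aldh2 was lower than in WT mice (-1.10, adjusted p 0.001) and than in Notch3-/- mice (-1.25, adjusted p 4.8e-04). Against WT mice its call was lost with only the arrays compared (adjusted p 0.21) and after quantile normalization (0.067). It was lost also by Tukey's test (0.14) and without mouse 2 of both groups (0.072). For Cxcl13 the direct difference between knockouts was 1.45 (adjusted p 0.088), for Arg1 0.82 (adjusted p 0.19) and for Kantr -1.65 (adjusted p 0.056), and none of these passed. The count fell to 42 and 44 without Notch3-/- mouse 1 or 2, to 89 without Notch4-/- mouse 1 and to 72 without Notch4-/- mouse 2.

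Notch4 and Notch3 lie on the same chromosome, 17, and the called genes were counted by place. On chromosome 17, 11 of 834 measured genes had a called probe set at 48 hr (1.32%), the deleted Notch4 among them. The share was 0.926% of all genes with a chromosome. It was higher on chromosomes 13 (2.14%), 15 (1.66%), 9 (1.6%) and 1 (1.51%) than on 17. Among the 100 measured genes on either side of Notch4, in RefSeq order, 2 of 200 were called (1%), Glo1 and 1700097N02Rik, which are neighbours in that order. Glo1, the glyoxalase that detoxifies methylglyoxal, was higher on 3 probe sets. On 1424108_at it was at -0.07, 0.05 and -0.06 in WT mice and 0.89, 0.91 and 0.96 in Notch4-/- mice (difference 0.95, adjusted p 4.4e-04), and the others gave 0.87 and 0.83. Against Notch3-/- mice it differed by 0.84. The mice of a group hardly differed in this gene, and the groups lay far apart. Between the knockouts 4 of the 200 were called (2%), Glo1, Dnah8, H2-Aa and the deleted Notch3, against 0.638% of all genes. Further genes of chromosome 17 outside this window were called between the knockouts too. Among them were Zfp994, Zfp945, Tbc1d24 and Tmem178, named above, at -301, -296, -265 and 384 genes from Notch4.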

How the data were processed

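Total RNA from the left lungs of individual mice was measured on Affymetrix arrays of the mouse genome. The deposited values are log2 signals that the authors obtained by robust multi-array averaging (RMA), with each probe set centred on its median over the 36 arrays (largest remaining median 5e-07), so brightness and detection cannot be read from them. Of 45101 probe sets 64 controls were left out, leaving 45037, of which the platform annotation, updated through RefSeq, gave 34945 a single gene symbol, 932 several and 9160 none. Only those with 1 symbol were named.

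Samples were grouped by title, 3 mice in each of 12 groups. Group means were fitted over all 36 arrays in limma 3.58.1 (R 4.3.3) with empirical Bayes variances, and p-values were adjusted over all probe sets of a comparison by Benjamini-Hochberg, with calls at an adjusted p under 0.05. The fit was tested on simulated data. With 3 arrays a group, their number limits the precision. The study's methods compared groups by analysis of variance and Tukey's test, tried here as an alternative beside other samples, array weights, variance priors, centring, normalization, probe set choice, the replicate block and left-out arrays. Same-numbered mice at 48 hr did not deviate together (correlations 0.54, 0.04 and -0.50), and no arrays were identical.

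Named genes were the 15 largest rises and 15 largest falls among calls with 1 symbol and non-overlapping groups, called members (up to 4) of 34 gene lists (596 genes measured of 663), or up to 2 of smallest p where few passed, genes the study names, and up to 10 genes each from the comparisons with air and with Notch3-/- mice. A listed gene was represented by its probe set of most specific suffix, then of lowest number. The comparison, lists and rule were chosen with earlier results of these data known.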

Additional observations from a re-analysis of the deposited data

Results flagged for a closer look

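Psca was picked out because its genotype difference was not the same in air and after 48 hr of ozone. The Notch4-/- minus WT difference was -3.11 at 48 hr and -1.58 in air, a change of -1.53 (SE 0.21, adjusted p 0.0032 by limma), and all 3 WT mice at 48 hr lay between 2.92 and 3.11 while all 3 Notch4-/- mice lay between -0.14 and 0.03. The change did not pass when only the arrays compared were fitted, after a further quantile normalization, or without Notch4-/- air mice 1 and 2.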

How the results depend on the processing

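The count of 212 became 25 with only the arrays compared in the fit (19 shared), 112 after quantile normalization once more, 114 when adjusted over 1 probe set per gene, 40 by the methods' analysis of variance with Tukey's test and 119 without mouse 2 of both groups (chosen after seeing the data); leaving out 1 array gave 107 to 191. The change from air (1) became 0 with only the arrays compared, 5 with array weights, 0 after quantile normalization and, chosen after seeing the data, 0 without Notch4-/- air mice 1 and 2 and 2 against the mean of air, 6 hr and 24 hr, with 1 to 7 leaving out 1 array. Tukey's test was not run on it.

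Notch4-/- against Notch3-/- (140) became 9, 776, 52, 70 and 11 with only the arrays compared, array weights, quantile normalization, 1 probe set per gene and Tukey's test, and 42 to 160 leaving out 1 array. With only the arrays compared, array weights, 1 probe set per gene and Tukey's test, the count at 24 hr (344) became 121, 928, 160 and 47, that at 6 hr (289) 169, 637, 151 and 60, and that in air (217) 27, 3061, 129 and 38. In air quantile normalization gave 400. Leaving out 1 array gave 129 to 393 at 24 hr, 179 to 308 at 6 hr and 106 to 238 in air. The cause of these changes was not tested.

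With the replicate block the 48 hr count was 237, of which 207 were shared, and it moved no count by over 1.5 times. None of the 41 named probe sets called in the main fit changed direction under any setting. Changes of sign in named probe sets that stayed uncalled were not assessed. Of 41 called named probe sets, 41 stayed called with a robust prior, with arrays centred, with only 1-symbol probe sets and with the block, 35 with array weights, 28 after quantile normalization, 13 by Tukey's test and 12 with only the arrays compared.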

Other observations

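The mouse that stood apart held other high and low genes. Besides fat genes, Notch4-/- mouse 2 at 48 hr was above the mean of the other Notch4-/- mice in Jchain (4.57), Ighm (2.72) and Cd5l (2.64), which are genes of plasma cells, B cells and macrophages, and in Nppa (2.83), atrial natriuretic peptide. It was below them in Kdr, the main VEGF receptor of endothelium (-1.01), Apln (-0.99), Col1a1 (-1.12) and the mitosis genes Ube2c (-1.17) and Haspin (-1.62). These genes were chosen after their values were seen.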
